A study of Mus musculus with 22 samples.

Results

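The early T and B lymphoid genes examined here are 35 genes that mark the first steps of lymphocyte development, and 31 of them were measured among the 22180 genes of the arrays. They were listed by name, though with earlier results of these data known: 16 genes of the T lineage (13 measured), 5 shared by both lineages (4 measured) and 14 of the B lineage (14 measured). For each gene the probe with 1 gene symbol and the highest mean was used. Tcf7, Cd247, Lck and Rag1 had no such probe and were not analysed here.

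The cells were haematopoietic stem cells of wild-type C57Bl/6J mouse embryos at day E14.5, and all groups share that genotype and source. Whole fetal liver cells were kept for 4 h or 10 h on OP9-DL1, a mouse stromal line that carries the Notch ligand Dll1, with either the solvent DMSO or 1 µM of a gamma-secretase inhibitor (GSI), which stops the cut that frees the active part of Notch receptors. SLAM LSK cells, a stem cell gate on cells without lineage markers that carry Kit and Sca-1, divided by SLAM family receptors, were then sorted and their RNA was hybridised, 1 sample to each 1-colour array. There were 7 DMSO and 7 GSI arrays at 4 h and 4 DMSO and 4 GSI arrays at 10 h, in 7 and 4 pairs, each pair a biological replicate split into a DMSO and a GSI culture. Every group, DMSO included, met the Notch ligand, so no group shows these cells without it, and the drug was given to the whole culture, liver cells and stroma alike, before the sort.

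In lymphocyte development, Notch signalling directs progenitors to the T lineage. The freed part of the receptor joins the DNA-binding protein RBPJ and switches on genes such as Hes1, and in early thymic progenitors it is followed by Tcf7, Gata3 and Bcl11b, the transcription factors that set T identity, and by Il2ra and Ptcra. The B lineage starts instead with Ebf1 and Pax5, which switch on the parts of the pre-B cell receptor, and Notch signalling works against it. Stem cells carry little of either programme, and fetal liver is a site of B cell formation.

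The promoters of 3 members are shown because the motif TGGGAA, the core of the RBPJ recognition sequence, lies in them and the genes belong to the T programme (Ptcra, Runx3) or open the B programme (Ebf1). Each stretch is 100 bases of the strand of the gene, 5′ to 3′, from RefSeq on GRCm38.p6, with the match in capitals. Ptcra lies at chr17:46763744-46763843 on the minus strand, with the match 84 to 79 bases before the start. Runx3 lies at chr4:135120444-135120543 on the plus strand, with the match 154 to 149 bases before the start. Ebf1 lies at chr11:44619978-44620077 on the plus strand, with the match in the reverse orientation 207 to 202 bases before the start.
Ptcra: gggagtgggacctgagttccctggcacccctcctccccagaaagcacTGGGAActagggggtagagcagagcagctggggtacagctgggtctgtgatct
Runx3: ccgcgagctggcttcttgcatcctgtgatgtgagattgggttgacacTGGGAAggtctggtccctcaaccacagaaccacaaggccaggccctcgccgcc
Ebf1: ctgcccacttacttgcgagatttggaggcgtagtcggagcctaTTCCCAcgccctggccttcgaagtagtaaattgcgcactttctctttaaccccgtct
On both strands of the 250 bases before the start, TGGGAA was found in 9 of 37 windows of the members and in 21.6% of 32851 windows of all genes. The members with a match were Ptcra, which has 2, Runx3, Ebf1, Cd3e, Cd3g, Cd22 and Vpreb2, and Lck and Rag1, which were not measured. Counted by gene, 9 of 28 member genes with a window had a match (32.1%; 5 of 13 T lineage genes, 38.5%), against 24.1% of all genes. No test was made of these shares, and a match of 6 letters is a description of the sequence, not a bound site.

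Levels are given as the log2 value of a gene less the median over all genes of the same array, so that 0 is the middle of an array. These medians were 5.34 to 5.45 at 4 h and 4.67 to 4.81 at 10 h. Probes of different genes do not share a scale, so a level places a gene on its array and does not rank genes against each other. No detection calls were used, and the 1390 olfactory and vomeronasal receptor genes, which encode receptors of sensory neurons, served as a reference for low signal: 95% of them lay below -0.58 in DMSO at 4 h and below -0.21 in DMSO at 10 h. Of 14 stem cell markers measured, 10 were above the median on every array, and Kit, the receptor of the gate, lay at 3.84 to 5.01, but Slamf1, the SLAM receptor CD150, lay below the median on every 4 h array (-2.03 to -0.80). All 7 measured markers of mature T cells were below the median on every array, and of 6 markers of mature B cells 2 were above it on every array. Both lists share genes with the members, so they are not independent of them. The shared genes were Cd3d, Cd3e and Cd3g in the T list and Cd79a, Cd79b, Pax5 and Cd22 in the B list. Cd79b was among the 2 above the median. Markers of other cells were above the median on every array as well. These were 6 of 10 for neutrophils and monocytes, 4 of 5 for erythroid cells, 5 of 10 for macrophages and 3 of 8 for hepatocytes. The part of such cells in the values of the members was not tested. The pair 6 cultures at 4 h stood apart from the other 6 pairs: both its arrays were above every other 4 h array for 19.3% of all genes and below for 8.61%. Several levels and estimates that rest on it are given with and without it.

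Most of the lymphoid genes gave low signal in these cells. Ikzf1, Ets1 and Cd79b, 3 of the 31, were above the array median on every array, against 39.9% of all genes. Of the rest, 19 were below it on every array (6 T, 3 shared and 10 B) and 9 lay on both sides. Against the receptor gene reference, 11 members were above the 95th percentile in DMSO at 4 h and 7 in DMSO at 10 h. The shares of all genes below the median on every array, or above this reference, were not counted. Gata3, Runx3, Ets1, Thy1, Ikzf1 and Cd79b were above it in all 4 groups, Bcl11b, Lef1, Ptcra, Ebf1 and Cd79a only in the 4 h groups, Pax5 only in the 10 h groups, and Vpreb2 only in GSI at 10 h. The other 18 were above it in none, and for these a change in a low true level could go unseen.

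**Figure D1:**
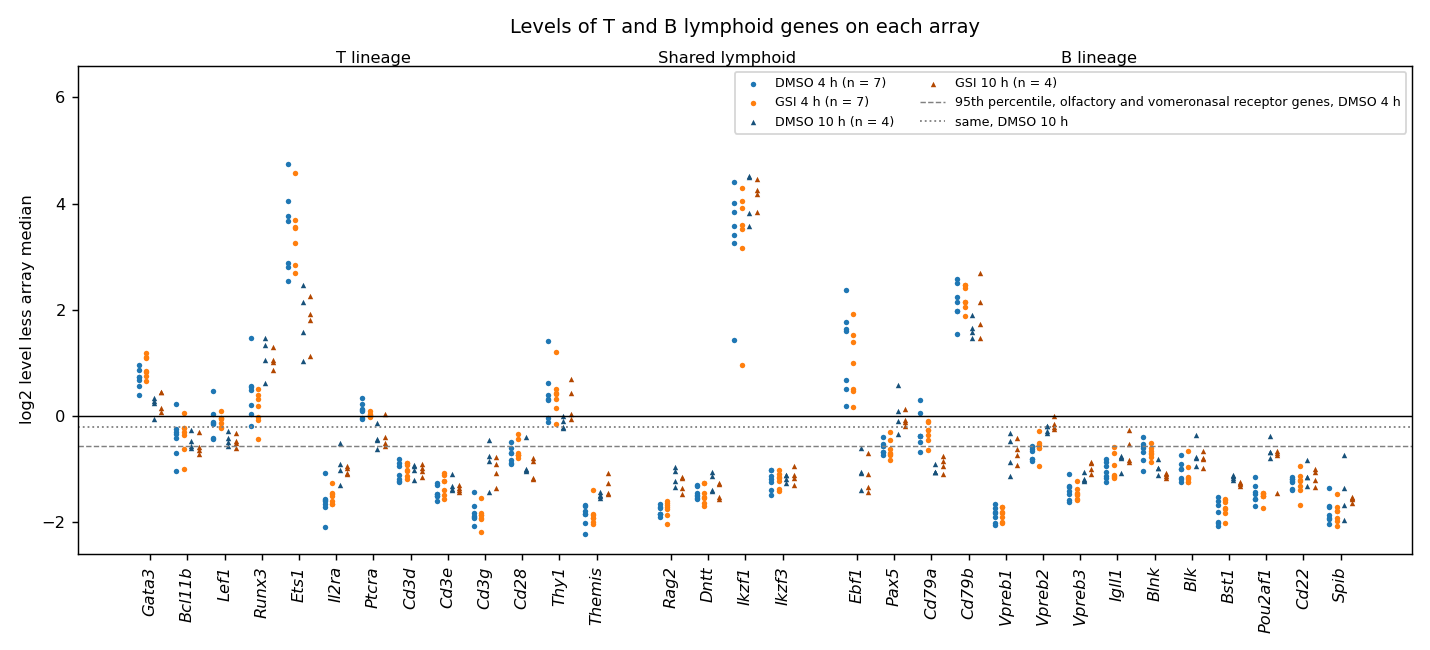
Levels of the 31 measured genes, as log2 value less the array median (vertical axis), with 1 point per array, circles for 4 h (DMSO and GSI, n = 7 each) and triangles for 10 h (n = 4 each). The dashed and dotted lines are the 95th percentile of olfactory and vomeronasal receptor genes in DMSO at 4 h (-0.58) and 10 h (-0.21); Ikzf1, Ets1 and Cd79b lie above 0 on all arrays, and most of the other genes lie near or under the lines.

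Among the T lineage transcription factors, Ets1, a factor also used by endothelial cells, was above the median on all arrays (Entrez 23871, chromosome 9). Its level in DMSO at 4 h ran from 2.53 to 4.74 (to 4.05 without pair 6) with a median of 3.68. In GSI it ran from 2.70 to 4.57 with a median of 3.54. At 10 h the DMSO levels were 2.14, 2.46, 1.58 and 1.03, and the GSI levels 1.92, 2.26, 1.80 and 1.12. DMSO and GSI overlapped fully at both times, while every 10 h array lay below every 4 h array. Gata3, which is needed from the first T progenitor on (Entrez 14462, chromosome 2), had levels of 0.70 ± 0.19 (SD, n = 7) in DMSO and 0.92 ± 0.20 in GSI at 4 h, and of 0.20 ± 0.18 (n = 4) and 0.27 ± 0.20 at 10 h. Runx3, which serves the cytotoxic T lineage (Entrez 12399, chromosome 4), lay at 0.44 ± 0.54 and 0.12 ± 0.32 at 4 h, and at 1.12 ± 0.37 and 1.06 ± 0.18 at 10 h. In DMSO at 4 h Bcl11b, the factor of T commitment, lay at -0.41 ± 0.39 (-0.51 ± 0.30 without pair 6). Lef1, a partner of beta-catenin related to Tcf7, lay at -0.11 ± 0.30. The 10 h DMSO levels of Bcl11b and Lef1 were -0.48 ± 0.15 and -0.45 ± 0.12, under the receptor gene reference of that time.

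Of the T cell receptor and surface genes, Ptcra and Thy1 lay on both sides of the array median and the other 6 lay below it on every array. Ptcra, which encodes the partner chain of the pre-T cell receptor and is a Notch target in thymocytes (Entrez 19208, chromosome 17), lay from -0.07 to 0.32 in DMSO at 4 h with a median of 0.10, and from -0.03 to 0.10 in GSI. At 10 h its DMSO levels were -0.63, -0.14, -0.45 and -0.44, and its GSI levels 0.03, -0.41, -0.58 and -0.51, so the groups overlapped. Il2ra, the interleukin 2 receptor alpha chain that appears on early thymocytes, was at -1.62 ± 0.30 and -1.53 ± 0.14 at 4 h, and at -0.94 ± 0.33 and -1.03 ± 0.07 at 10 h. The CD3 chain genes Cd3d, Cd3e and Cd3g, which carry the signal of the T cell receptor, lay at -1.06, -1.45 and -1.83 in DMSO at 4 h. The co-receptor gene Cd28 lay at -0.74 and Themis, a signalling protein of thymocytes, at -1.88. None of these 6 genes was above the receptor gene reference in any group. Thy1, a surface protein of T cells that stromal cells also carry (Entrez 21838, chromosome 9), lay at 0.41 ± 0.51 in DMSO at 4 h (0.24 ± 0.28 without pair 6) and at -0.14 ± 0.10 in DMSO at 10 h.

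Of the genes shared by both lineages, Ikzf1, the Ikaros factor that opens lymphoid genes in multipotent progenitors (Entrez 22778, chromosome 11), was high. Its level in DMSO at 4 h was 3.42 ± 0.96 (1.42 to 4.40, median 3.58), or 3.75 ± 0.42 without pair 6. In GSI at 4 h it ran from 0.95 to 4.30 with a median of 3.60. At 10 h it was 3.83, 4.50, 4.52 and 3.57 in DMSO and 4.17, 4.26, 4.46 and 3.83 in GSI. The lowest value in each 4 h group belonged to pair 6, and DMSO and GSI overlapped at both times. Rag2, a subunit of the recombinase that joins receptor gene segments, lay at -1.80 ± 0.09 in DMSO at 4 h and at -1.15 ± 0.17 at 10 h. Dntt, which adds bases at those joints, lay at -1.46 and -1.25, and Ikzf3, the Ikaros relative Aiolos, at -1.22 and -1.18.

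In the B lineage, the founding factor Ebf1 (Entrez 13591, chromosome 11) was well above the reference at 4 h and under it at 10 h. It ran from 0.18 to 2.37 in DMSO at 4 h (to 1.76 without pair 6), with a median of 1.59. In GSI at 4 h it ran from 0.16 to 1.92, with a median of 0.99. At 10 h it was -1.40, -0.60, -1.09 and -1.06 in DMSO and -0.71, -1.11, -1.34 and -1.45 in GSI. All 10 h arrays lay below all 4 h arrays, with DMSO and GSI mixed within each time. Which cells gave the Ebf1 signal was not tested. Pax5, which locks the B fate after Ebf1, was at -0.60 ± 0.12 in DMSO at 4 h and at 0.05 ± 0.39 at 10 h. Of the genes of the signalling chains of the B cell receptor, Cd79b (Entrez 15985, chromosome 11) lay at 2.14 ± 0.35 in DMSO at 4 h and 1.64 ± 0.18 at 10 h, and Cd79a, its partner in the receptor, lay at -0.28 ± 0.34 and -1.02 ± 0.08. The surrogate light chain genes, which stand in for the light chain in pre-B cells, were low: in DMSO at 4 h Vpreb1 lay at -1.86, Vpreb2 at -0.71, Vpreb3 at -1.42 and Igll1 at -1.04. Vpreb1 and Vpreb2 are near-identical copies, so their values may mix. The adaptor Blnk (-0.67), the kinase Blk (-1.04), the surface proteins Bst1 (-1.82) and Cd22 (-1.26), the coactivator Pou2af1 (-1.46) and the factor Spib (-1.80) were also below the median on every array.

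The next comparison asks whether blocking gamma-secretase for 4 h moved these genes. No T, shared or B gene passed limma's test at an adjusted p under 0.05 (0 of 31, lowest adjusted p = 0.999), where 0.00451% of all genes did. The Notch target Hes1 was lower in 7 of 7 pairs, by 0.97 ± 0.088 on the log2 scale (SE, limma adjusted p = 0.00020). At an unadjusted p under 0.05 there were 2 members, against 4.21% of all genes. Estimates were positive for 15 members and negative for 16, where 54.3% of all genes had a positive one. The median change was -0.00055 against 0.0085 over all genes, and no member had the same sign in all 7 pairs, which 1.82% of all genes did (1.01% higher, 0.807% lower). The medians were 0.016 for T, -0.012 for shared and -0.030 for B genes. Since each culture is bulk RNA, fewer cells with a transcript and less of it per cell cannot be told apart.

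The T genes with the smallest p at 4 h had opposite signs. Runx3 differed by -1.07, -0.08, -0.24, -0.49, -0.29, -0.25 and 0.17 in pairs 1 to 7, lower in 6 of 7, with an estimate of -0.32 ± 0.131 (95% interval -0.60 to -0.043, limma unadjusted p = 0.026, adjusted p = 0.999). Pair 1 was the far value, and without it the estimate was -0.20. Gata3 differed by 0.035, 0.42, 0.34, 0.30, -0.034, 0.22 and 0.27, higher in 6 of 7, with an estimate of 0.22 ± 0.098 (95% interval 0.014 to 0.43, limma unadjusted p = 0.038, adjusted p = 0.999). Its other probe gave 0.15. Ptcra differed by -0.10 ± 0.101 and Il2ra by 0.09 ± 0.119. Thy1 differed by -0.00055 ± 0.124 and Bcl11b by 0.016 ± 0.082.

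The shared and B genes moved no further at 4 h. Ebf1 differed by 0.33, -0.07, -0.51, -0.58, -0.12, -0.46 and -0.37 in pairs 1 to 7, lower in 6 of 7, with an estimate of -0.26 ± 0.139 (limma unadjusted p = 0.085, adjusted p = 0.999). Ikzf1 differed by -0.062 ± 0.088 (0.0078 without pair 6), Ets1 by -0.041 ± 0.091 and Cd79b by 0.079 ± 0.131, with pairs on both sides of 0. For 29 of the 31 members the 95% interval lay within 0.5 of 0. For all 31 it lay within 1, that is within a 2-fold change of the signal either way. The outermost bounds were -0.60 and 0.43. For members within the receptor gene reference these intervals bound the probe signal, and a change in a low true level could go unseen.

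**Figure D2:**
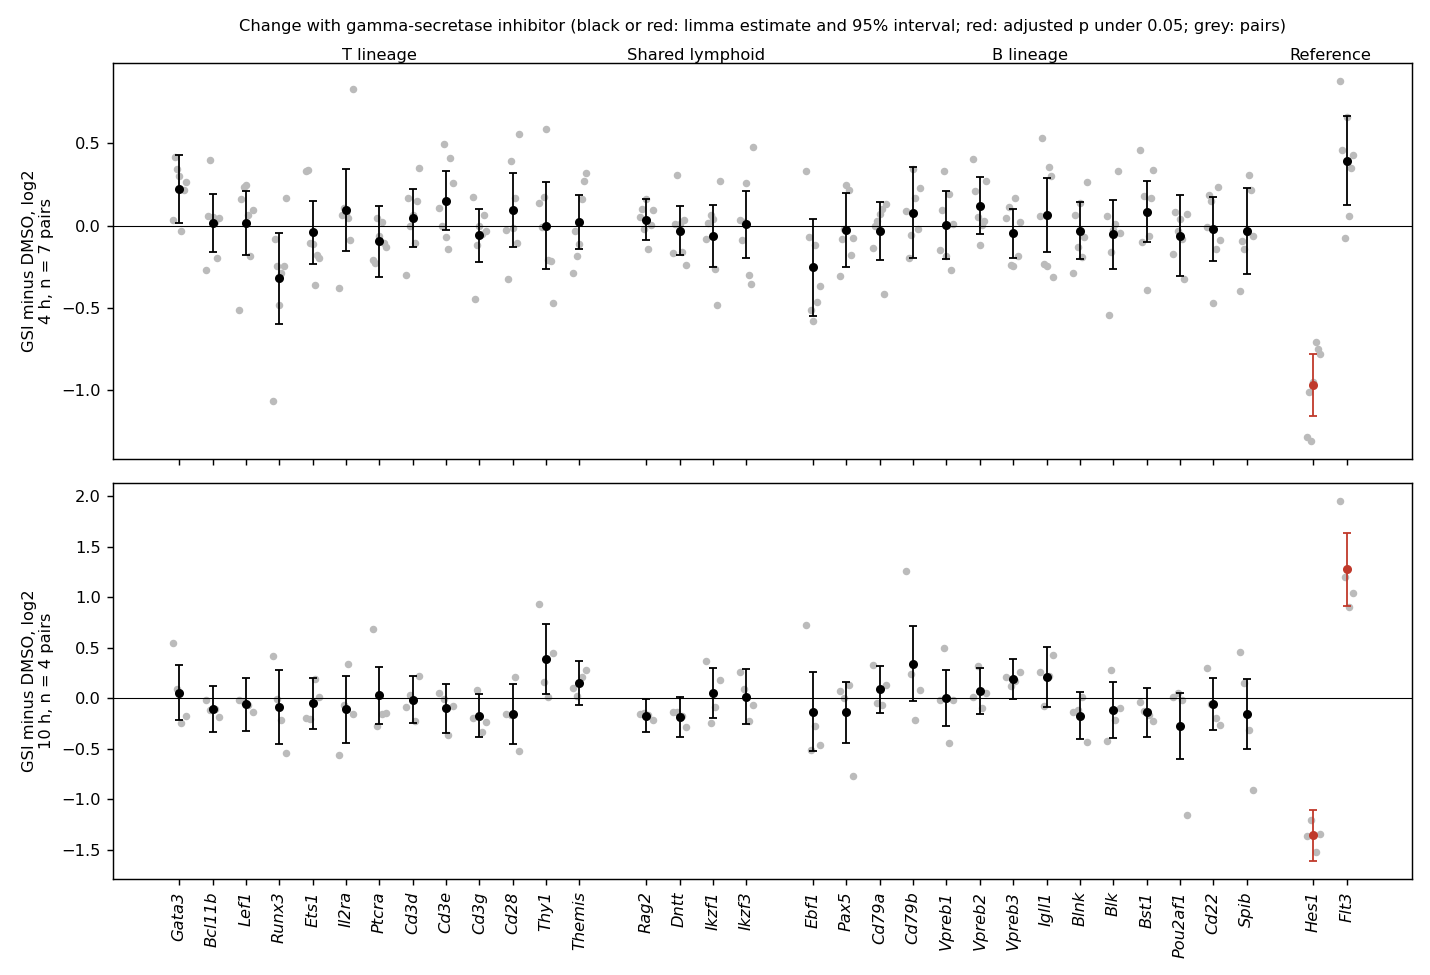
Change with GSI for each gene, in log2 units (vertical axis, upper panel 4 h with n = 7 pairs, lower panel 10 h with n = 4 pairs). Grey points are pairs, black or red points and bars are limma estimates with 95% intervals, and red marks an adjusted p under 0.05; none of the 31 lymphoid genes is red, while Hes1 (-0.97 and -1.36) is at both times and Flt3 (1.28) is at 10 h.

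After 10 h of GSI, 0 of 31 members passed (lowest limma adjusted p = 0.292), against 0.667% of all genes, 148 of 22180 (0.555% higher, 0.113% lower). The split of these 148 was 123 higher and 25 lower, against 40 and 24 after cyclic loess and 27 and 9 after quantile normalization. At an unadjusted p under 0.05 there were again 2 members, against 14.1% of all genes. Estimates were positive for 12 and negative for 19, and 46.2% of all genes had a positive one. The median change was -0.061 for T, -0.077 for shared and -0.084 for B genes, against -0.014 over all genes. The same sign in all 4 pairs was seen for 8 of 31, against 16.7% of all genes: Thy1, Themis and Vpreb3 had 4 higher pairs (8.47% of all genes did), and Bcl11b, Lef1, Rag2, Dntt and Bst1 had 4 lower pairs (8.2%). Hes1 was lower by 1.36 ± 0.117 in 4 of 4 pairs (limma adjusted p = 4.7e-05).

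Thy1 had the smallest p of the members at 10 h. Its levels were -0.22, -0.23, -0.01 and -0.10 in DMSO and 0.69, -0.06, 0.03 and 0.43 in GSI. The groups did not overlap except that the GSI array of pair 2 lay below the DMSO array of pair 3. The differences of the pairs were 0.93, 0.16, 0.016 and 0.45, with an estimate of 0.39 ± 0.164 (95% interval 0.041 to 0.74, limma unadjusted p = 0.031, adjusted p = 0.292), and 0.21 without pair 1. OP9 stromal cells carry Thy1 as well. The median change of 11 OP9 stromal markers, Thy1 among them, was 0.25, -0.57, -0.36 and -0.28 in the same pairs, and their median level ran from 0.62 to 1.52 in DMSO and from 0.43 to 1.54 in GSI, with 6 of 11 above the array median on every array. The median change of the stem cell markers in these pairs was 0.73, 0.25, 0.31 and 0.39. The part of stromal RNA, or of the shift in stem cell markers, in the Thy1 values was not tested.

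Rag2 was the second. Its levels were -0.97, -1.34, -1.23 and -1.05 in DMSO and -1.15, -1.48, -1.37 and -1.18 in GSI. Every pair was lower, by -0.16, -0.14, -0.17 and -0.21, although the groups overlapped. The estimate was -0.17 ± 0.077 (limma unadjusted p = 0.042, adjusted p = 0.329). Vpreb3 was the third, with pair differences of 0.21, 0.13, 0.17 and 0.26, an estimate of 0.19 ± 0.092 (adjusted p = 0.372) and levels of -1.18 ± 0.08 in DMSO and -0.97 ± 0.11 in GSI. Both genes lay under the receptor gene reference in both groups.

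Cd79b had the second largest estimate at 10 h, 0.34 ± 0.173 (95% interval -0.024 to 0.71, limma adjusted p = 0.392). Its DMSO levels were 1.46, 1.89, 1.66 and 1.58 and its GSI levels 2.69, 2.14, 1.47 and 1.74. The pairs differed by 1.26, 0.24, -0.22 and 0.08, so that the estimate came mostly from pair 1 and was 0.037 without it. Ptcra also had its highest difference in pair 1, 0.68, against -0.27, -0.16 and -0.14 in the others, and an estimate of 0.030 ± 0.134 (-0.19 without pair 1). The same pair held the highest difference of Ebf1 (0.72, estimate -0.13 ± 0.184), Gata3 (0.54, estimate 0.055 ± 0.129) and Runx3 (0.42, estimate -0.087 ± 0.173). Without pair 1 these estimates were -0.42, -0.11 and -0.25, and none passed (limma adjusted p = 0.328, 0.785 and 0.631). The panleukocyte gene Ptprc, which encodes CD45, differed by 0.73 in pair 1 and by 0.012, 0.015 and -0.032 in the others, and the median change of the stem cell markers was 0.73 in pair 1 and 0.25 to 0.39 in the others. The part of these shifts in the lymphoid values was not tested. Ikzf1 differed by 0.056 ± 0.117, with the sign turned after quantile (-0.016) or cyclic loess normalization (-0.042), and Ets1 by -0.051 ± 0.120. Of the 31 members, 26 had a 95% interval within 0.5 of 0 and 31 within 1, with outermost bounds of -0.61 and 0.74. As at 4 h, these intervals bound the probe signal, which is low for the members within the receptor gene reference.

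**Figure D3:**
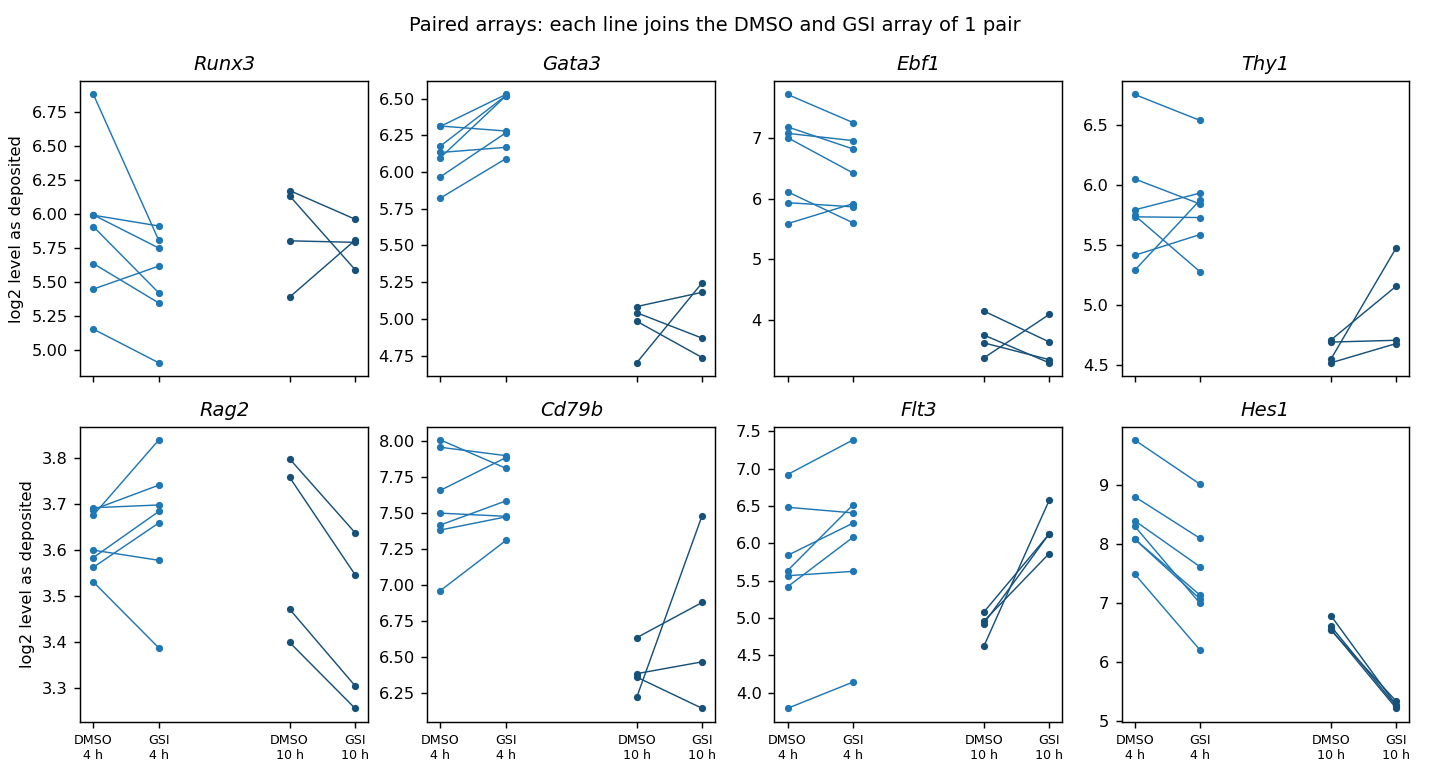
Deposited log2 values (vertical axes) of 6 lymphoid genes and of the reference genes Flt3 and Hes1, each line joining the DMSO and GSI array of 1 pair, at 4 h (left of each panel, 7 pairs) and 10 h (right, 4 pairs). Lines of Hes1 all fall and those of Flt3 all rise at 10 h; those of Rag2 fall in 4 of 4 pairs at 10 h by -0.14 to -0.21, and those of Runx3, Gata3, Ebf1 and Cd79b run both ways.

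Averaged over both times, 0 of 31 members passed (lowest limma adjusted p = 0.460), against 0.32% of all genes. The members with the smallest p were Cd79b (0.21 ± 0.108, adjusted p = 0.460), Thy1 (0.19 ± 0.103, adjusted p = 0.475) and Runx3 (-0.20 ± 0.109, adjusted p = 0.479). The effect at 10 h less that at 4 h, the test of whether time changed the response, also passed for 0 of 31 (lowest limma adjusted p = 0.530), against 0.018% of all genes. It was -0.21 ± 0.096 for Rag2, 0.24 ± 0.116 for Vpreb3 and 0.39 ± 0.206 for Thy1. In these 2 comparisons, 0 and 1 members had an unadjusted p under 0.05, against 12.0% and 9.36% of all genes.

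Genes that accompany the members in each lineage showed a few changes. They were taken from lists written from general knowledge, but with earlier results of these data known. Runs named below are groups of arrays inferred from the sample codes. Of 28 other T lineage genes measured, none passed at 4 h or 10 h, and over both times 1 rose: Prkcq, the kinase that relays the T cell receptor signal (0.75 ± 0.118, limma adjusted p = 0.014). Its estimate was 0.69 at 4 h (adjusted p = 0.420), where it passed without pair 6 (0.84, adjusted p = 0.047) and in run 2 alone (1.15, adjusted p = 0.0016), and 0.82 at 10 h (adjusted p = 0.064), where it passed among the genes above the array median (adjusted p = 0.039). Of 25 other B lineage genes, 2 rose at 10 h, both of the signalling chain below the B cell receptor that myeloid and stem cells also use: the kinase gene Btk by 0.60 ± 0.128 and the phospholipase gene Plcg2 by 0.68 ± 0.143, each in 4 of 4 pairs (limma adjusted p = 0.044 for each). Without pair 1 neither passed (0.58 and 0.50, adjusted p = 0.143 and 0.174), nor did Btk without pair 2 or 4, nor Plcg2 without pair 2, 3 or 4. Both also lost the call after quantile or cyclic loess normalization (adjusted p = 0.104 to 0.115), without the intensity trend (0.061 and 0.064) and with the 10 h arrays alone (0.392 and 0.409). The median change at 10 h was -0.015 over the other T genes and -0.010 over the other B genes, both close to that of all genes.

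Of 21 genes of lymphoid priming in multipotent progenitors, 1 rose at 10 h. This was Flt3, the cytokine receptor of early lymphoid progenitors, with levels of 0.14 ± 0.19 in DMSO and 1.44 ± 0.25 in GSI and a rise of 1.28 ± 0.170 in 4 of 4 pairs (limma adjusted p = 0.0037; 0.142 with the 10 h arrays alone in the fit, and 0.618 and 0.210 in runs 1 and 2 alone). Stem cell markers moved with Flt3, Btk and Plcg2: 5 of 14 rose at 10 h, against 0.555% of all genes. These were Hoxa9 by 1.02, Mecom by 0.82, Hlf by 0.73, Erg by 0.58 and Mllt3 by 0.54 (limma adjusted p = 0.022 to 0.049). The median change over the list was 0.40. The list was chosen with earlier results of these data known, so its share of calls is a description and not independent support. With the 10 h arrays alone only 1 of all genes was called higher, and without the pair block or in run 1 alone 0 were. So at most 1 of these 5 calls held there. The part of the stem cell markers in the rises of Flt3, Btk and Plcg2 was not tested. Il7r, the interleukin 7 receptor of lymphoid progenitors, lay at -1.87 ± 0.22 in DMSO at 4 h and differed by -0.25 ± 0.089 at 4 h (limma adjusted p = 0.999) and -0.10 ± 0.117 at 10 h. None of 18 genes of natural killer and innate lymphoid cells passed in either comparison. Of 17 measured Notch target genes, 4 of them members of the T list (Gata3, Bcl11b, Il2ra and Ptcra), only Hes1 fell at 4 h and 10 h. Nrarp, a feedback target, differed by -0.10 ± 0.124 and -0.25 ± 0.164, and Dtx1 by 0.097 ± 0.081 and 0.054 ± 0.107.

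The cultures differed from each other in a few lymphoid genes by more than the estimates for GSI. Pair means, each the mean of a DMSO and its GSI array, had an SD over the 7 pairs at 4 h of 1.04 for Ikzf1 (0.41 without pair 6), 0.71 for Ebf1 (0.60), 0.70 for Ets1 (0.51), 0.43 for Thy1 (0.19) and 0.40 for Runx3 (0.32). The median of this SD was 0.14 over the members and 0.16 over all genes. Ebf1 had pair means of 0.34, 0.48, 0.41, 1.29, 1.58, 2.15 and 1.58 in pairs 1 to 7. Those of Ets1 were 2.69, 3.07, 2.75, 3.61, 3.87, 4.66 and 3.66. Both were lowest in pairs 1 to 3 and highest in pair 6. The grouping into runs is an inference from the sample codes, which no label calls runs. Under that inference, pairs 1 to 3 fall in other runs than pairs 4 to 7. These 2 sets of pairs did not overlap for Ebf1 (at most 0.48 against at least 1.29) or Ets1 (at most 3.07 against at least 3.61). Nor did they for Ikzf1, Runx3, Ptprc and the endothelial markers, given below, while those of Thy1 and Hes1 overlapped. The share of all genes without overlap was not counted. The meaning of the codes is unknown here.

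Ikzf1 ran the other way, with pair means of 4.35, 4.02, 3.88, 3.59, 3.28, 1.18 and 3.39. Ptprc, the gene of CD45 that all leukocytes carry, had 4.44, 4.16, 4.37, 3.80, 3.54, 1.48 and 3.39, and Runx3 0.93, 0.53, 0.42, 0.24, 0.05, -0.32 and 0.11. Ikzf1, Ptprc and Runx3 were thus highest in pair 1 and lowest in pair 6. Endothelial markers, 7 of 7 measured and 6 of 7 above the array median on every array, had pair medians of 2.76, 3.50, 3.47, 4.00, 4.26, 5.14 and 4.02. Their median over the list ran from 2.57 to 5.17 in DMSO and from 2.69 to 5.12 in GSI at 4 h, and from 1.41 to 2.98 and 1.21 to 2.86 at 10 h. The lowest and highest of these pair medians were in the same pairs as the highest and lowest values of Ikzf1. Hes1 had pair means of 1.43, 2.16, 2.20, 2.18, 3.01, 4.04 and 2.58 at 4 h, also lowest in pair 1 and highest in pair 6. The part of endothelial RNA in the values of Ets1, Ebf1, Thy1, Ikzf1 and Hes1 was not tested. Both arrays of pair 6 were above all other 4 h arrays for 5 of 31 members (Bcl11b, Ets1, Thy1, Themis and Ebf1), against 19.3% of all genes, and below for 2 (Runx3 and Ikzf1), against 8.61%, so the share of members was near that of all genes.

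**Figure D4:**
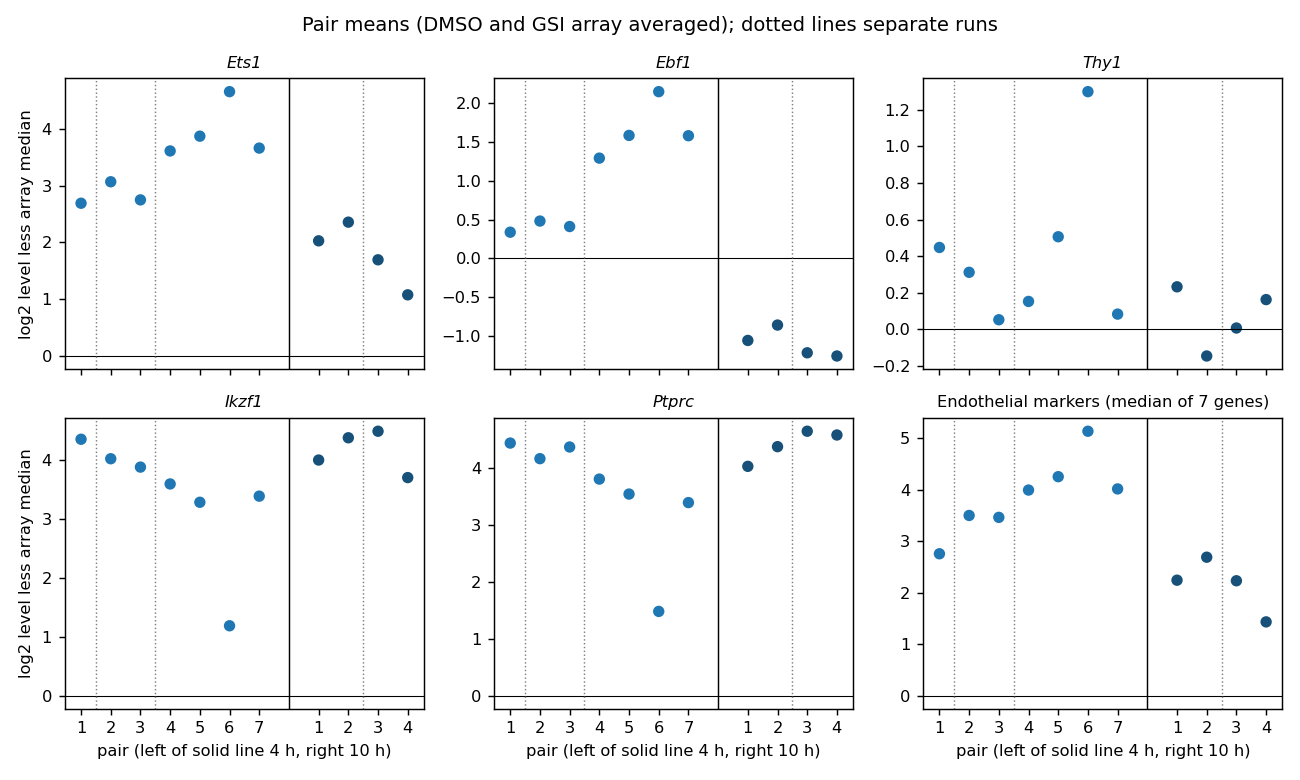
Pair means (the DMSO and GSI array averaged) of log2 level less the array median (vertical axes, each with its own range) for Ets1, Ebf1, Thy1, Ikzf1, Ptprc and the median of 7 endothelial markers, by pair (horizontal axis: 7 pairs at 4 h left of the solid line, 4 pairs at 10 h right of it, dotted lines between runs). Pair 6 at 4 h is the highest for Ets1 (4.66), Ebf1 (2.15), Thy1 (1.30) and the endothelial markers (5.14) and the lowest for Ikzf1 (1.18) and Ptprc (1.48).

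Levels at 10 h and 4 h are set side by side only as a description. No inferred run holds both times, and the array medians differ. The effects of time and run therefore cannot be told apart here. Every 10 h array was below every 4 h array for Ets1, Ebf1 and Cd79a, 3 of 31 members against 2.8% of all genes. Every 10 h array was above every 4 h array for Cd3g, Rag2, Vpreb1 and Bst1, 4 of 31 against 18.4% of all genes. Endothelial markers were also lower at 10 h, with pair medians of 2.24, 2.69, 2.23 and 1.43. The pair means of Ebf1 at 10 h were -1.05, -0.86, -1.21 and -1.25, and those of Ets1 were 2.03, 2.36, 1.69 and 1.08. Rag2, Cd3g, Vpreb1 and Bst1 lay under the receptor gene reference at both times, and that reference itself was higher at 10 h.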

How the data were processed

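RNA of sorted fetal liver stem cells was measured on 22 arrays. The deposited values are log2 expression. The submitters' processing notes name RMA and Partek 6.6 for them; whether both times were normalized together, and the array's genome build, are not given in the sources used here. RMA sets arrays that are normalized together on a common distribution, so a change of all genes together would not be seen among them. The array medians were 5.34 to 5.45 at 4 h and 4.67 to 4.81 at 10 h, so the 2 times differ in scale. The fit and the test between times join both. Of 41345 probes, 23521 had 1 gene symbol, 1814 several and 16010 none listed; the last 2 kinds were left out. Of 1082 genes with more than 1 probe, the probe of highest mean was kept. No gene was removed for low signal. Entrez identifiers were matched for 23328 probes to a gene table of GRCm38.p6, which gave the chromosomes.

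GSI minus DMSO was tested with limma 3.58.1 in R 4.3.3 (lmFit, then eBayes with its trend option), as a 2-sided test in 1 fit of all 22 arrays with the pair as a fixed block and Benjamini-Hochberg adjustment over 22180 genes. The fit was tested on simulated data. The pairing comes from the series' design text. Deviations from the group means correlated between partners with r of 0.223 to 0.872 at 4 h and 0.213 to 0.449 at 10 h. For pair 4 at 4 h (r of 0.223) the DMSO array correlated better with a GSI array of another pair than with its partner. With so few arrays, precision is limited by their number. The members and gene lists were chosen with earlier results of these data known. Genes described with all values were those past the threshold, the 3 of smallest p in each comparison and those above the array median on every array; others named for their values at 10 h (Cd79b, Ptcra), or for their spread between cultures, were chosen after these were seen. Alternatives were the pair block, normalization, spread, dim genes, probes, times, pairs and runs. The runs were inferred from the sample codes, so the settings with 1 run alone rest on that inference.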

Additional observations from a re-analysis of the deposited data

Results flagged for a closer look

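Single arrays or pairs far from the rest of their group were found in 12 of 186 groups of values of the members (4 groups of arrays and 2 of pair differences per gene); chance alone gives about 1 in 20. The causes were not tested.

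In the T lineage, the difference of Il2ra in pair 7 at 4 h was 0.83, with the next at 0.11. The difference of Ptcra in pair 1 at 10 h was 0.68, with the next at -0.14. The level of Cd28 was -0.40 in DMSO replicate 4 at 10 h, with the next at -1.003. The level of Themis was -1.40 in GSI replicate 6 at 4 h, with the next at -1.86. Ikzf1, of the shared genes, was low in pair 6 at 4 h, at 1.42 in DMSO (the next at 3.25) and 0.95 in GSI (the next at 3.15).

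In the B lineage, the difference of Pax5 in pair 4 at 10 h was -0.77, with the next at 0.0062. Cd79a was high (-0.91, next -1.06) and Igll1 low (-1.09, next -0.80) in DMSO replicate 3 at 10 h. Pou2af1 was low in GSI replicate 3 at 4 h (-1.74, next -1.51) and in GSI replicate 4 at 10 h (-1.45, next -0.75), and its difference in pair 4 at 10 h was -1.15, with the next at -0.020.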

How the results depend on the processing

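In each alternative run, 0 members passed in each of the 4 comparisons, with a lowest limma adjusted p of 0.371 at 4 h, 0.164 at 10 h, 0.343 over both times and 0.482 for the difference between times, and 3 or 4 members lay above the array median on every array. Without the pair block, 0 members passed as well; the pairing is that of the design. Without the block 0 genes of all passed at 4 h, 0 at 10 h and 2 over both times, against 1, 148 and 71, so Hes1, Flt3, Btk and Plcg2 were not called at 10 h.

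The sign of small estimates turned in some settings. At 4 h these were Ikzf1 (0.041), Ets1 (0.12) and Cd79b (-0.13) in run 2 alone; leaving out 1 pair, Ikzf1 ranged from -0.12 to 0.0078 and Ets1 from -0.10 to 0.013. At 10 h they were Ikzf1 after quantile (-0.016) and cyclic loess normalization (-0.042), Ebf1 in run 1 alone (0.105) and Runx3 (0.20) in that run, Gata3 with the mean of its probes (-0.034) and, in run 2 alone, Ets1 (0.10), Cd79b (-0.068), Gata3 (-0.21) and Ptcra (-0.15); leaving out 1 pair, Ikzf1 ranged from -0.048 to 0.16, Ets1 from -0.13 to 0.0018, Gata3 from -0.11 to 0.16, Ptcra from -0.19 to 0.13 and Runx3 from -0.25 to 0.065. The difference between times of Prkcq was -0.00097 after quantile normalization. The causes were not tested.

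The count of all genes at 10 h was 36 after quantile and 64 after cyclic loess normalization, 91 without the trend, 286 among 11179 brighter genes, 2 in the 10 h arrays alone, 0 in run 1, 15 in run 2 and 27 to 228 without 1 pair; at 4 h it was 148 in run 2 alone, 2 in the 4 h arrays alone and 3 without pair 6. Over both times it was 36 after quantile normalization and 163 among the brighter genes, against 71, and for the difference between times 0 and 2 after quantile and cyclic loess normalization, against 4. Low signal limits the 18 members within the receptor gene reference.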
